A study of Homo sapiens with 8 samples.

Results

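The genes of MHC class I antigen presentation followed here were 8 of the 57736 gene IDs in the count files. They were taken by the primary-assembly Ensembl ID of each symbol: HLA-B (ENSG00000234745), HLA-C (ENSG00000204525), HLA-E (ENSG00000204592), HLA-F (ENSG00000204642), B2M (ENSG00000166710), TAP1 (ENSG00000168394), TAP2 (ENSG00000204267) and TAPBP (ENSG00000231925). All 8 IDs were present, and 7 of them reached 50 counts in at least 1 library. HLA-F had 0 counts in 7 of the 8 libraries and 1 count in the shControl input, so no ratio was formed for it.

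The study measured IMR90, a line of human fetal lung fibroblasts. Its RNA-seq held 1 library with knockdown of ADAR1 (KD), the enzyme that turns adenosine into inosine where RNA is double-stranded, and 1 control library (Ctrl). A separate RNA immunoprecipitation held cells carrying shADAR1, cells carrying shHuR and cells carrying shControl, each with 1 precipitate made with an antibody against HuR and 1 input made without antibody. HuR, encoded by ELAVL1, binds U-rich and AU-rich stretches of RNA. The labels name no further treatment or allele for any group. Each group was 1 library, so the intervals printed with single ratios cover counting error only and say nothing of the spread between cultures. No precipitate with an unspecific antibody was analysed here, so recovery with the antibody does not by itself separate binding by HuR from unspecific recovery.

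MHC class I molecules show peptides from inside the cell to cytotoxic T cells and natural killer cells. A heavy chain, such as the classical HLA-B and HLA-C or the less variable HLA-E and HLA-F, pairs with beta-2-microglobulin, the product of B2M. Peptides cut by the proteasome enter the endoplasmic reticulum through the transporter made of TAP1 and TAP2, and tapasin (TAPBP) bridges that transporter to the empty heavy chain and helps it to take up peptide. Fibroblasts carry class I at a basal level, and interferons raise the whole set.

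Total counts ran from 28390935 in the shADAR1 input to 50711218 in the KD library. In bulk RNA, fewer cells that carry a transcript and less of it per cell cannot be told apart. The knocked-down genes themselves had fewer counts where the labels name their knockdown. ADAR had 1445 counts in KD cells against 7732 in Ctrl cells, and 3142 in the shADAR1 input against 12890 in the shControl input. ELAVL1 had 674 counts in the shHuR input against 4806 in the shControl input. The 8 fibroblast markers looked at were all detected in every library, whereas the leukocyte genes CD3E and ITGAM were at 0 in all 8 and PTPRC had at most 6 counts. CD14, a myeloid marker, had 152 counts in the shADAR1 input, against 1 in the shControl input. The summed level of the 7 leukocyte markers was 34.1 CPM (scaled counts relative to library size) in the shADAR1 input. It was 29.3 in the shHuR and 31.2 in the shControl input. Most of that sum was CD68, at 27.8 CPM in the shADAR1, 28.1 in the shHuR and 30.4 in the shControl input. CD14 made up 5.58 CPM of the sum in the shADAR1 input. The summed level of 4 endothelial markers was 88.3 CPM in KD cells against 54.5 in Ctrl cells, and 76.2 in the shADAR1 input and 36.6 in the shHuR input against 18.8 in the shControl input, with CDH5 at 0 counts in all 8 libraries. Most of that sum was TEK, at 77.0 CPM in KD cells against 52.5 in Ctrl cells, and 75.2 in the shADAR1 input against 17.0 in the shControl input. VWF was at 0.686 CPM in KD against 0.103 in Ctrl cells. In the inputs VWF was at 0.917 CPM in shADAR1 and 0.596 in shHuR against 1.85 in shControl. KDR was at 10.5 CPM in KD against 1.9 in Ctrl cells, and had at most 2 counts in any input. Of the 4 epithelial markers, CLDN4 had 675 counts in KD and 427 in Ctrl cells. It had 17 counts in the shADAR1, 19 in the shHuR and 61 in the shControl input. EPCAM had 103 counts in KD and 136 in Ctrl cells, and at most 16 in any input. CDH1 had at most 18 counts in any library, and KRT5 had 0 in all 8. The fibroblast markers also differed in level between libraries. By at least 2-fold, COL1A1 was higher and DCN lower in KD than in Ctrl cells. LUM and DCN were higher in the shADAR1 than in the shControl input. LUM was higher and COL1A1 lower in the shHuR than in the shControl input. The rest of the 8 stayed within 2-fold in each comparison. DCN was at 235.3 CPM in KD against 573.7 in Ctrl cells, and at 690.0 in the shADAR1 against 211.1 in the shControl input. The part of these markers in the differences below was not tested.

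Start regions of 7 of the 8 genes were found in the RefSeq table of build GRCh38.p14, 250 bases before to 50 bases after the annotated start. They are shown for the classical heavy chains, their shared light chain and both ends of the loading machinery. The part of these start regions in the results below was not tested. TAP1 has a pair of annotated starts, and the one with matches is printed. Capitals mark matches to GAANNGAAA or GAAANNGAA, the spacings of the repeat that interferon regulatory factors bind, on either strand.
HLA-B (chr6:31357130-31357429, minus strand): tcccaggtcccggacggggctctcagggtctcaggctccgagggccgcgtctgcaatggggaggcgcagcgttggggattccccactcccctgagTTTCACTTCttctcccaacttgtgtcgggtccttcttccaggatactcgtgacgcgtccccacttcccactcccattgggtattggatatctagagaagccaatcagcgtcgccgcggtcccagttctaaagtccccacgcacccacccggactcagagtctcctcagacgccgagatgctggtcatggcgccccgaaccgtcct
HLA-C (chr6:31272043-31272342, minus strand): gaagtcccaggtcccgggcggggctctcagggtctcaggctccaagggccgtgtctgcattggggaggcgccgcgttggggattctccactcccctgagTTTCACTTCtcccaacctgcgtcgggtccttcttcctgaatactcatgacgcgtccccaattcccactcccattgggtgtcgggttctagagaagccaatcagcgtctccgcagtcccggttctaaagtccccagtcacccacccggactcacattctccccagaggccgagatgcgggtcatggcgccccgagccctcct
B2M (chr15:44711267-44711566, plus strand): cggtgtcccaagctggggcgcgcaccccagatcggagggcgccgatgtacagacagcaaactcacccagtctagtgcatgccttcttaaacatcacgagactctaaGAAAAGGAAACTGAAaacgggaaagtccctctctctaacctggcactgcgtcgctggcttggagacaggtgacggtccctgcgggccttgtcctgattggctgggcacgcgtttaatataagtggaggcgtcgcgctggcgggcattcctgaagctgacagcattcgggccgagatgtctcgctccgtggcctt
TAP1 (chr6:32853655-32853954, minus strand): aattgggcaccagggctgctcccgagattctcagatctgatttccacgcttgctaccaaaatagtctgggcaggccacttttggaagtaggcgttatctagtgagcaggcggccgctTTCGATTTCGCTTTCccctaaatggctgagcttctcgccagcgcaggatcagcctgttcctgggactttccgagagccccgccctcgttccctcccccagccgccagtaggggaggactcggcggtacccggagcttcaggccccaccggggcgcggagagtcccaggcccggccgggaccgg
TAPBP (chr6:33314029-33314328, minus strand): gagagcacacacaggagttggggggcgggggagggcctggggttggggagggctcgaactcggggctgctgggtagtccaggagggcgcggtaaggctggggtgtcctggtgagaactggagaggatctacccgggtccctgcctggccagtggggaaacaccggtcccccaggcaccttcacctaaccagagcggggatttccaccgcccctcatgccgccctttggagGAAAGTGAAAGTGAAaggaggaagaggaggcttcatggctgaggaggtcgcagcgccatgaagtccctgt

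At least 1 such match stood in each of the 7 genes with a start region, including HLA-F and TAP2, which are not printed. Of the 35116 start regions in the table, 14.5% held a match. Its first base lay at position -155 in HLA-B and -151 in HLA-C, counted from the start as 0, and pairs of overlapping matches began at -144 and -138 in B2M, at -133 and -127 in TAP1 and at -20 and -14 in TAPBP. Class I promoters are also known for a module, used by NLRC5, that holds a TGACG-like and a CCAAT-like box. TGACG, searched on both strands, was present in HLA-B, HLA-C, B2M and TAP2, against 24.6% of all start regions. CCAAT was present in HLA-B, HLA-C, HLA-F, B2M and TAP1, against 34.6%, and in neither TAP2 nor TAPBP. The start regions of HLA-B and HLA-C were identical at 269 of 304 aligned positions, or 88.5%. Gene locations are from that build, whereas the deposited counts were made on hg19, and a match to letters is a description, not a bound site.

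HLA-B, HLA-C and HLA-E also share coding sequence, which bears on how reads were assigned. Of the 50-base stretches in the transcript with the longest 3' UTR of each gene (GENCODE 29), 2.54% in HLA-B, 6.79% in HLA-C and 5.13% in HLA-E occurred in a transcript of another gene. HLA alleles of a line also differ from the reference. Single heavy-chain values are therefore less certain than the sum over the 4 HLA genes, which is given beside them. The share was 35.8% in TAP2, and 5.99% in TAPBP, 1.07% in TAP1 and 0% in B2M. Exon bases that overlap another annotated gene made up 32.3% in TAP2 (same strand), 28.5% in HLA-F (opposite strand), 18.9% in HLA-B (both strands), 9.49% in TAP1 (opposite strand) and 1.4% in HLA-C. Since the strand setting of the counting is not known, reads there could be assigned to either gene or left out, and the counts of 0 for HLA-F may not show absence of the transcript.

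In the RNA-seq pair, B2M was the most abundant of these transcripts per length, and the heavy chains came next. Deposited FPKM values of B2M were 2044.13 in KD cells and 1385.89 in Ctrl cells, at ranks 78 and 85 of the 22946 and 20741 genes with a value above 0. HLA-E followed with 92.75 in KD cells and 65.36 in Ctrl cells. HLA-B had 49.71 in KD and 41.67 in Ctrl cells, and HLA-C had 38.3 in KD and 25.4 in Ctrl cells. In RNA-seq the loading genes had lower FPKM than any of these heavy chains: TAPBP had 13.61 FPKM in KD cells and 5.55 in Ctrl cells, TAP1 8.31 in KD and 14.04 in Ctrl cells, and TAP2 7.17 in KD and 9.0 in Ctrl cells. The order of the loading genes differed between the libraries, with TAPBP above both transporter genes in KD cells and below both in Ctrl cells.

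**Figure D1:**
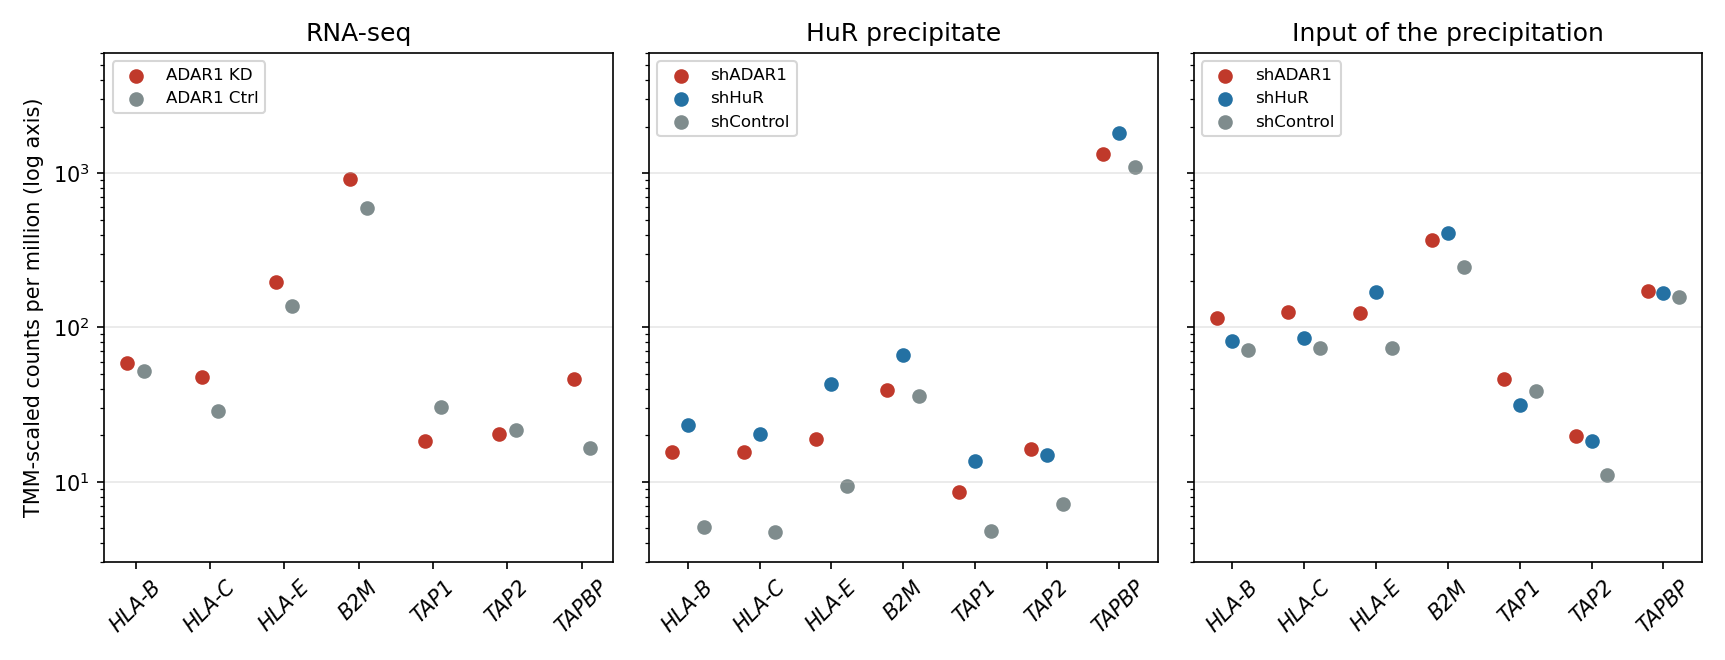
TMM-scaled CPM (log axis) of 7 class I genes in each library, 1 point per library, in RNA-seq (ADAR1 KD, ADAR1 Ctrl), HuR precipitates and inputs (shADAR1, shHuR, shControl). TAPBP stands at 1097.0 or more in the 3 precipitates, where the other genes stay at 65.8 or less. The panels do not share scaling factors, so heights compare within a panel only.

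Knockdown of ADAR1 was accompanied by more counts of the heavy chains and B2M in both experiments, whereas the loading genes did not move together. After scaling by TMM, which sets the libraries to a common level of most genes, HLA-C was 0.73 higher on the log2 scale in KD than in Ctrl cells (95% exact interval 0.62 to 0.83) and 0.78 higher in the shADAR1 than in the shControl input (0.71 to 0.85). B2M was higher by 0.62 in RNA-seq and by 0.57 in the input. HLA-E was higher by 0.51 in RNA-seq and 0.77 in the input, and HLA-B by 0.18 in RNA-seq and 0.68 in the input. The median of all genes tested was -0.01 in RNA-seq and -0.04 in the inputs. Each of these 4 genes was thus higher with less ADAR1 in both pairs, by less than 2-fold every time with this scaling.

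The counts behind these ratios were ample. HLA-B had 3010 counts in KD against 2022 in Ctrl cells, and 3121 in the shADAR1 input against 2705 in the shControl input. HLA-C had 2435 counts in KD against 1123 in Ctrl cells, and 3426 in the shADAR1 input against 2769 in the shControl input. HLA-E had 9983 counts in KD against 5357 in Ctrl cells, and 3403 in the shADAR1 input against 2767 in the shControl input. These 3 heavy chains had more counts, before scaling for depth, in KD cells and in the shADAR1 input than in Ctrl cells and the shControl input. With 46360 counts in KD cells against 22973 in Ctrl cells, B2M carried 70.1% of the class I counts in KD and 67.3% in Ctrl cells. Summed over the 4 HLA genes, the log2 ratio was 0.47 (0.43 to 0.51) in RNA-seq and 0.74 (0.70 to 0.79) in the inputs. With GC and length trends taken out, HLA-B in RNA-seq turned to -0.22, which is below the level that would be called, while HLA-B (1.08) and HLA-C (1.29) in the shADAR1 input passed 2-fold.

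TAPBP and TAP1 differed most from that pattern. TAPBP had 2366 counts in KD cells and 644 in Ctrl cells, a log2 ratio of 1.49 (1.36 to 1.62) or 2.80-fold, and it was the only one of the 7 genes to pass 2-fold in RNA-seq. In the inputs the same gene had 4695 counts with shADAR1 and 5985 with shControl, a log2 ratio of 0.12 (0.07 to 0.18). The scaled level of TAPBP was 46.4 CPM in KD and 16.5 in Ctrl cells, below every input, which ran from 158.3 to 172.2. RNA-seq and inputs were scaled separately, so these levels are not on a common scale. The length implied by its counts and FPKM also differed, at 3428.1 bases in KD and 2962.2 bases in Ctrl cells; whether the isoforms assigned by RSEM changed was not tested. On the deposited FPKM the log2 ratio of TAPBP was 1.27.

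TAP1, a chain of the peptide transporter, had 938 counts in KD against 1197 in Ctrl cells, a log2 ratio of -0.74 (-0.87 to -0.62). In the inputs it had 1268 counts with shADAR1 against 1464 with shControl, a log2 ratio of 0.26 (0.16 to 0.37) after scaling. Its partner TAP2 had 1035 counts in KD against 842 in Ctrl cells, with a log2 ratio of -0.09 whose interval (-0.22 to 0.04) includes 0. TAP2 then stood 0.85 higher (0.66 to 1.04) in the shADAR1 input, with 541 counts against 416. The ratio of TAP1 to TAP2 counts within a library was 0.906 in KD against 1.42 in Ctrl cells, and 2.34 in the shADAR1 input against 3.52 in the shControl input. It was also lower in the shHuR input, at 1.71, than in the shControl input.

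In RNA-seq, 1 of 7 class I genes was at least 2-fold higher and 0 were lower, beside 8.31% higher and 7.71% lower of 13235 genes tested. In the shADAR1 input, 0 of 7 were higher and 0 lower at that level, beside 8.94% and 10.6% of 13192 genes. When both pairs were fitted together with edgeR's quasi-likelihood test and the experiment as a block, which leaves 1 residual degree of freedom, none of the 7 genes passed an adjusted p of 0.05, and only 0.0813% of 15994 genes rose and 0.0125% fell. The fitted log2 changes were 0.75 for HLA-C (SE 0.42, unadjusted p = 0.0972), 0.80 for TAPBP (SE 0.49), 0.64 for HLA-E, 0.60 for B2M, 0.43 for HLA-B, 0.38 for TAP2 and -0.24 for TAP1, with an edgeR adjusted p of 1 each. None of the 7 had an unadjusted p under 0.05 in edgeR or in DESeq2. The same edgeR fit did not call ADAR itself, which fell by 2.18 (SE 0.50, edgeR adjusted p = 0.275). A gene not called by this fit is therefore not shown to be unchanged.

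**Figure D2:**
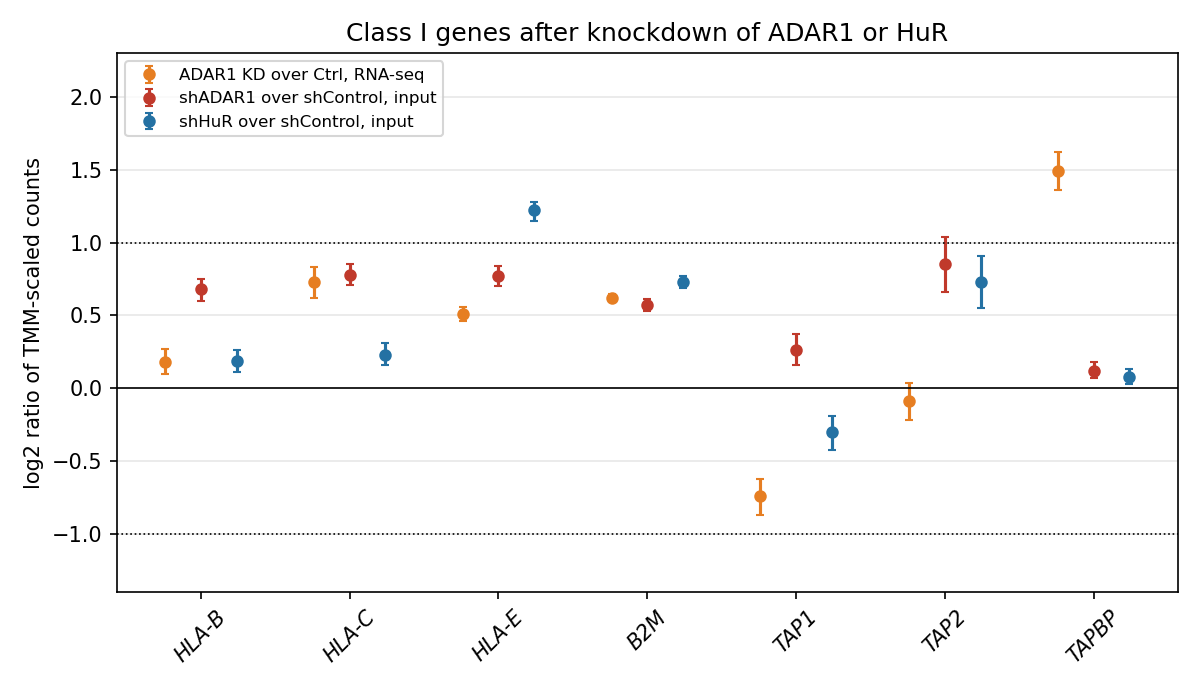
Log2 ratio of TMM-scaled counts of 7 class I genes for ADAR1 KD over Ctrl (RNA-seq), shADAR1 over shControl and shHuR over shControl (inputs), with 95% exact counting intervals and dotted lines at 2-fold. TAPBP in RNA-seq (1.49) and HLA-E in the shHuR input (1.22) lie beyond 2-fold.

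Knockdown of HuR gave another order among the heavy chains. HLA-E, which presents leader peptides of other class I chains to natural killer cells, had 6006 counts in the shHuR input against 2767 in the shControl input, a log2 ratio of 1.22 (1.15 to 1.28) or 2.33-fold. HLA-B and HLA-C were 0.19 (0.11 to 0.26) and 0.23 (0.16 to 0.31) higher, much less than HLA-E. B2M stood 0.73 higher with 14479 counts in the shHuR input against 9364 in the shControl input. TAP2 was also 0.73 higher, TAP1 had a log2 ratio of -0.30 (-0.42 to -0.19), and TAPBP differed by 0.08. One of 7 genes, HLA-E, was at least 2-fold higher and 0 were lower, beside 12.0% higher and 15.9% lower of 13390 genes. The shADAR1 and shHuR comparisons share the shControl input, so their values are given side by side only.

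The anti-HuR precipitates separated TAPBP from every other class I gene. TAPBP had 42787 counts in the shADAR1, 36816 in the shHuR and 33117 in the shControl precipitate, against 4695 in the shADAR1, 5894 in the shHuR and 5985 in the shControl input. Its log2 ratio of precipitate to input was 3.40 in shADAR1, 3.90 in shHuR and 3.26 in shControl, which placed it at rank 227, 296 and 388 from the top in those lines. In the fit over the 3 lines TAPBP rose by 3.57 in the precipitates (SE 0.28, edgeR adjusted p = 1.02e-05, higher in 3 of 3 lines). The ratio was highest in the shHuR line, where ELAVL1 in the input was 6.65-fold lower than in shControl. It made up 92.1% of the class I counts in the shADAR1 precipitate against 17.7% in its input, 90.9% against 17.3% in shHuR, and 94.2% against 23.5% in shControl.

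The heavy chains, B2M and TAP1 were on the other side. HLA-B had 505 counts in the shADAR1 precipitate against 3121 in its input, 473 against 2872 in shHuR and 153 against 2705 in shControl, and fell by 2.32 in the fit over lines (edgeR adjusted p = 0.000574). HLA-C fell by 2.51 (adjusted p = 0.000285) and HLA-E fell by 2.05 (adjusted p = 0.000241). B2M had 1275 counts in the shADAR1 precipitate against 10009 in its input, 1332 against 14479 in shHuR and 1086 against 9364 in shControl, and fell by 2.37 (adjusted p = 4.79e-05). TAP1 fell by 1.71 (adjusted p = 0.0036). These 5 genes were lower in the precipitate in 3 of 3 lines, with log2 ratios of HLA-E at -2.28 in shADAR1, -1.53 in shHuR and -2.49 in shControl. The log2 ratio of TAP1 was -1.98 in shADAR1, -0.74 in shHuR and -2.56 in shControl, so its distance from input was smallest in the shHuR line. B2M lay between -2.76 in shADAR1 and -2.19 in shHuR. Its place among all genes tested differed more, with 5.0% of them below it in shADAR1, 2.36% in shHuR and 18.4% in shControl.

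TAP2 lay between these sides. It had 526 counts in the shADAR1 precipitate against 541 in its input, 301 against 645 in shHuR and 218 against 416 in shControl. The log2 ratios were 0.17 in shADAR1, 0.15 in shHuR and -0.14 in shControl, with a fitted change of 0.11 (SE 0.31, edgeR adjusted p = 0.767). All these ratios depend on the scaling. On total counts the median of all genes moved by -0.86 in shADAR1, -0.99 in shHuR and -0.87 in shControl, and TAP2 then stood at -0.69 in shADAR1, -0.84 in shHuR and -1.01 in shControl. TAPBP stayed positive on total counts, at 2.54 in shADAR1, 2.90 in shHuR and 2.38 in shControl.

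Of the 7 genes, 1 was at least 2-fold higher in the precipitate in each line. The share of all tested genes that was higher was 30.0% in shADAR1, 25.5% in shHuR and 30.7% in shControl. Lower by at least 2-fold were 5 of 7 in shADAR1, 4 of 7 in shHuR and 5 of 7 in shControl, beside 37.5%, 25.4% and 38.4% of all genes. With GC and length trends taken out, HLA-B (-0.85 in shADAR1, -0.53 in shHuR) and HLA-C (-0.99 in shADAR1, -0.95 in shHuR) were no longer called in those lines, which left 3 in shADAR1 and 2 in shHuR. By the edgeR test over lines 1 of 7 rose and 5 fell, beside 30.3% and 31.3% of 16232 genes. The median log2 change of the 7 genes was -2.05 against -0.11 over all genes tested.

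**Figure D3:**
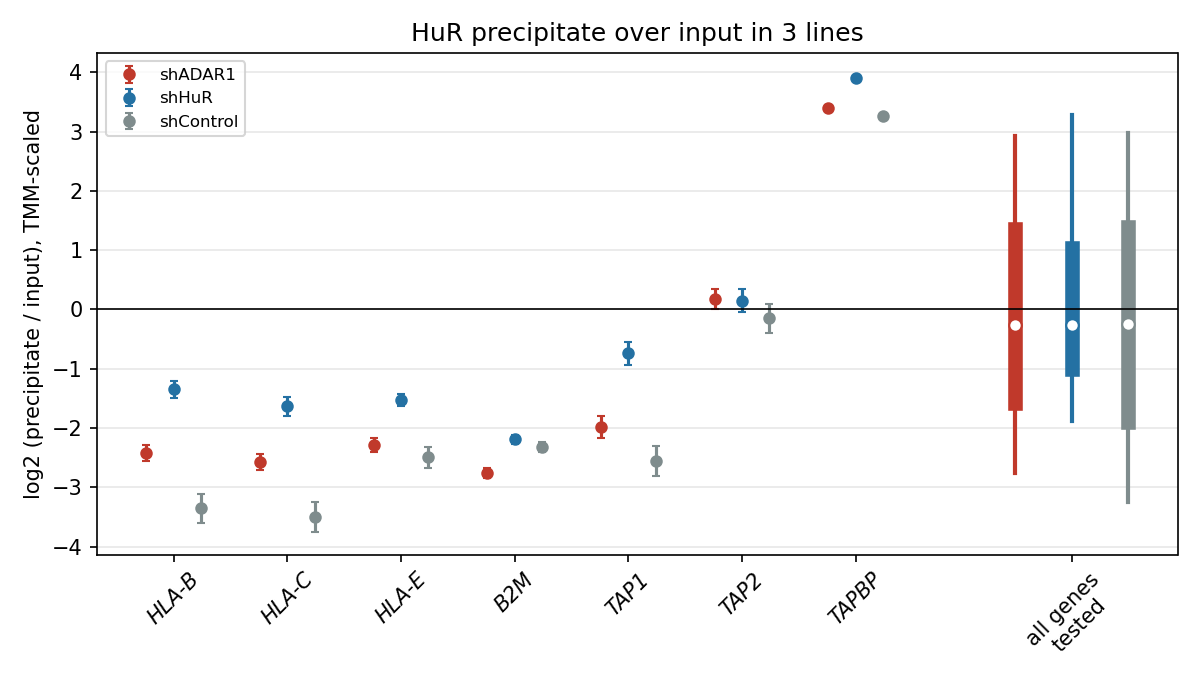
Log2 ratio of HuR precipitate to input for 7 class I genes in the shADAR1, shHuR and shControl lines with 95% exact counting intervals, beside all genes tested (thin line 5th to 95th percentile, thick line quartiles, open circle median). TAPBP lies between 3.26 and 3.90, TAP2 near 0, and the other 5 genes below 0 in every line.

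The 3' UTRs of the class I genes were searched for T-rich letters, since HuR is known to bind many mRNAs there; whether these letters bear on recovery was not tested. In the longest 3' UTR annotated in GENCODE 29, TAPBP had 33 overlapping matches to TTTNTTT in 2066 bases, or 16.0 per kb. That density was above 97.8% of the 11647 genes with at least 50 counts in the shControl input, whose median was 2.45. B2M and HLA-B had 2.33 per kb, TAP2 1.15, and HLA-C, HLA-E and TAP1 had 0. The longest run of T in TAPBP was 18 bases, and 6.99% of those genes had a run as long. Because matches may overlap, that run alone gave several of the 33, which are not separate sites. TAPBP was not AT-rich as a whole, with 47.7% A or T against a median of 57.7%.

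The pentamer ATTTA, the core of AU-rich elements, was found 6 times each in B2M and TAP2, 3 times in TAPBP, 2 times in HLA-E and 1 time in TAP1, and 74.6% of the genes had at least 1. TTATTTATT was present 2 times in TAP2 alone, against 9.79% of genes. These longest 3' UTRs are 1285 bases in B2M and 3491 in TAP2. The length implied by counts and FPKM was shorter, at 447.2 bases in KD and 423.2 in Ctrl cells for B2M. For TAP2 it was 2846.5 bases in KD and 2388.3 in Ctrl cells. For TAPBP, with 2066 bases of 3' UTR, it was 3428.1 in KD and 2962.2 in Ctrl cells. The implied length is an effective length, which can be below that of the transcript. Whether the transcripts present lack part of these 3' UTRs was not tested.

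**Figure D4:**
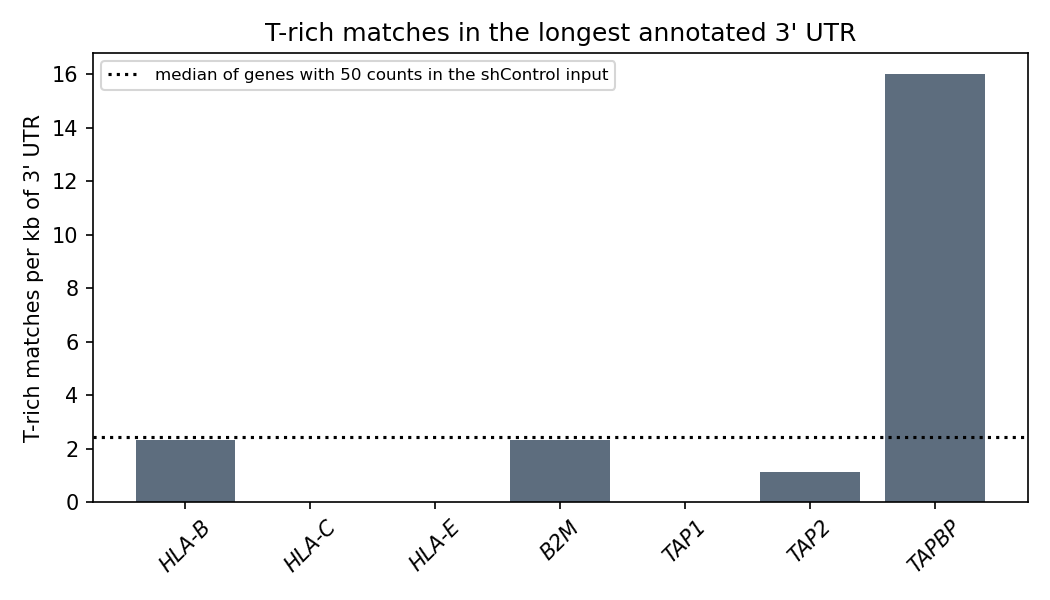
Overlapping TTTNTTT matches per kb in the longest annotated 3' UTR of 7 class I genes. The dotted line is the median (2.45) of genes with at least 50 counts in the shControl input. TAPBP has 16.0, and the other 6 genes 2.33 or less.

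HuR enrichment of HLA-B and HLA-C was less negative in both knockdown lines than in shControl. The log2 ratio of precipitate to input of HLA-B was -2.42 in shADAR1 and -1.35 in shHuR, against -3.35 in shControl. That of HLA-C was -2.57 in shADAR1 and -1.63 in shHuR, against -3.50 in shControl. HLA-B therefore differed from shControl by 0.94 (0.67 to 1.21) in shADAR1 and by 2.00 (1.73 to 2.28) in shHuR, and HLA-C by 0.93 in shADAR1 and 1.86 in shHuR. TAP1 differed by 0.58 in shADAR1 and 1.81 in shHuR, and HLA-E by 0.21 in shADAR1, with an interval that reaches 0, and 0.96 in shHuR. B2M differed by -0.44 in shADAR1 and by 0.13 in shHuR, TAP2 by 0.31 in shADAR1 and 0.30 in shHuR, and TAPBP by 0.14 in shADAR1 and 0.64 in shHuR. Both lines were set against the same shControl libraries.

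Calls for these differences were set at 1.5-fold. In shADAR1, HLA-B and HLA-C were higher, 2 of 7, and 0 were lower, beside 19.7% higher and 14.2% lower of 12641 genes. In shHuR, 5 of 7 were higher (HLA-B, HLA-C, TAP1, HLA-E and TAPBP) and 0 were lower, beside 39.4% and 23.5% of 12468 genes. The median of all genes in shHuR was itself 0.25. The lower tail of all genes was also less negative in that line. The 5th percentile of precipitate over input was -1.88 in shHuR and -2.76 in shADAR1, against -3.25 in shControl. A less negative ratio in shHuR was thus shared by many depleted genes and is not particular to class I. The differences changed when GC and length trends were taken out together: 0 of 7 were called in shADAR1 and 3 in shHuR, and TAPBP in shHuR turned to -0.06. The parts of GC and of length were not separated. The transcript of HuR, ELAVL1, had 742 counts in the shHuR precipitate against 27765 in that of shControl; the protein was not measured here.

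Genes that supply and fold class I were described from a list of 16 genes. The immunoproteasome subunits PSMB8 and PSMB9, which change the cuts of the proteasome towards class I ligands, had the lowest ratios of them after knockdown of HuR. PSMB9 had 58 counts in the shHuR input against 487 in the shControl input, a log2 ratio of -2.97, and PSMB8 had 352 against 1102, a log2 ratio of -1.55. LNPEP, an aminopeptidase of endosomes, stood 1.86 higher and the chaperone CANX 1.12 higher. PSMB10, the other immunoproteasome subunit of the list, stood at -0.46 and was not called. In that comparison 2 of 16 genes were at least 2-fold higher and 2 lower, beside 12.0% higher and 15.9% lower of all genes, so both shares were near the background. In RNA-seq 0 of 15 tested and in the shADAR1 input 0 of 16 passed 2-fold in either direction, with list medians of 0.19 and 0.08; the genes farthest from 0 were ERAP1 (-0.92), PSMB7 (0.79) and LNPEP (-0.69) in RNA-seq, and ERAP2 (0.96), LNPEP (0.87) and PSMB8 (-0.61) in the input.

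In the precipitates, 4 of these 16 genes rose and 9 fell over the 3 lines by the edgeR test, beside 30.3% and 31.3% of all genes. The lectin chaperone CALR, which holds class I in the loading complex with tapasin, rose by 3.16 (edgeR adjusted p = 1.02e-05), LNPEP by 2.71, CANX by 2.44 and UGGT1, which checks the folding of glycoproteins, by 1.58. All 8 subunits of the proteasome core and of its activator on the list fell, led by PSME1, which fell by 3.06 (edgeR adjusted p = 0.00012), and PSME2, which fell by 2.94. TAPBPL, a relative of tapasin, fell by 1.68 (edgeR adjusted p = 0.0124), opposite to TAPBP. The trimming enzymes ERAP1 (-0.55) and ERAP2 (-0.79) and the disulfide isomerase PDIA3 (-0.38) were not called.

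Of the regulators of class I genes, 19 were looked at, and 18 had enough counts for a ratio. IRF1, which binds the repeat marked in the start regions, had 1853 counts in the shADAR1 input against 929 in the shControl input, a log2 ratio of 1.47 (1.35 to 1.58). IRF9 was 1.22 higher, and IFNGR1, a chain of the interferon gamma receptor, stood 1.17 higher. These 3 of 18 tested genes were at least 2-fold higher and 0 were lower, beside 8.94% and 10.6% of all genes. In RNA-seq, whose difference from the input was not tested, 0 of 18 passed 2-fold, with IRF1 at 0.73, and JAK2 (-0.90), CREB1 (-0.81) and IFNAR2 (0.77) farthest from 0. IFNB1, which encodes interferon beta, had 2 counts in the shADAR1 input, 2 in its precipitate and 0 elsewhere.

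After knockdown of HuR, IFNGR1 was at least 2-fold higher (1.51), and NLRC5, the main activator of class I promoters, was lower with 501 counts in the shHuR input against 1259 in the shControl input (-1.23). NLRC5 was also lower, by less than 2-fold, in the shADAR1 input, at -0.68. In the precipitates, 7 of 18 regulators rose and 5 fell over the 3 lines by the edgeR test, shares near the 30.3% and 31.3% of all genes, led by STAT2 (2.62) and RFXANK (-2.41). The edgeR fit over both ADAR1 knockdowns called 0 of 18 regulators and 0 of 16 supply genes, with IRF1 at 1.10 and an adjusted p of 0.961. That fit did not call ADAR itself either.

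**Figure D5:**
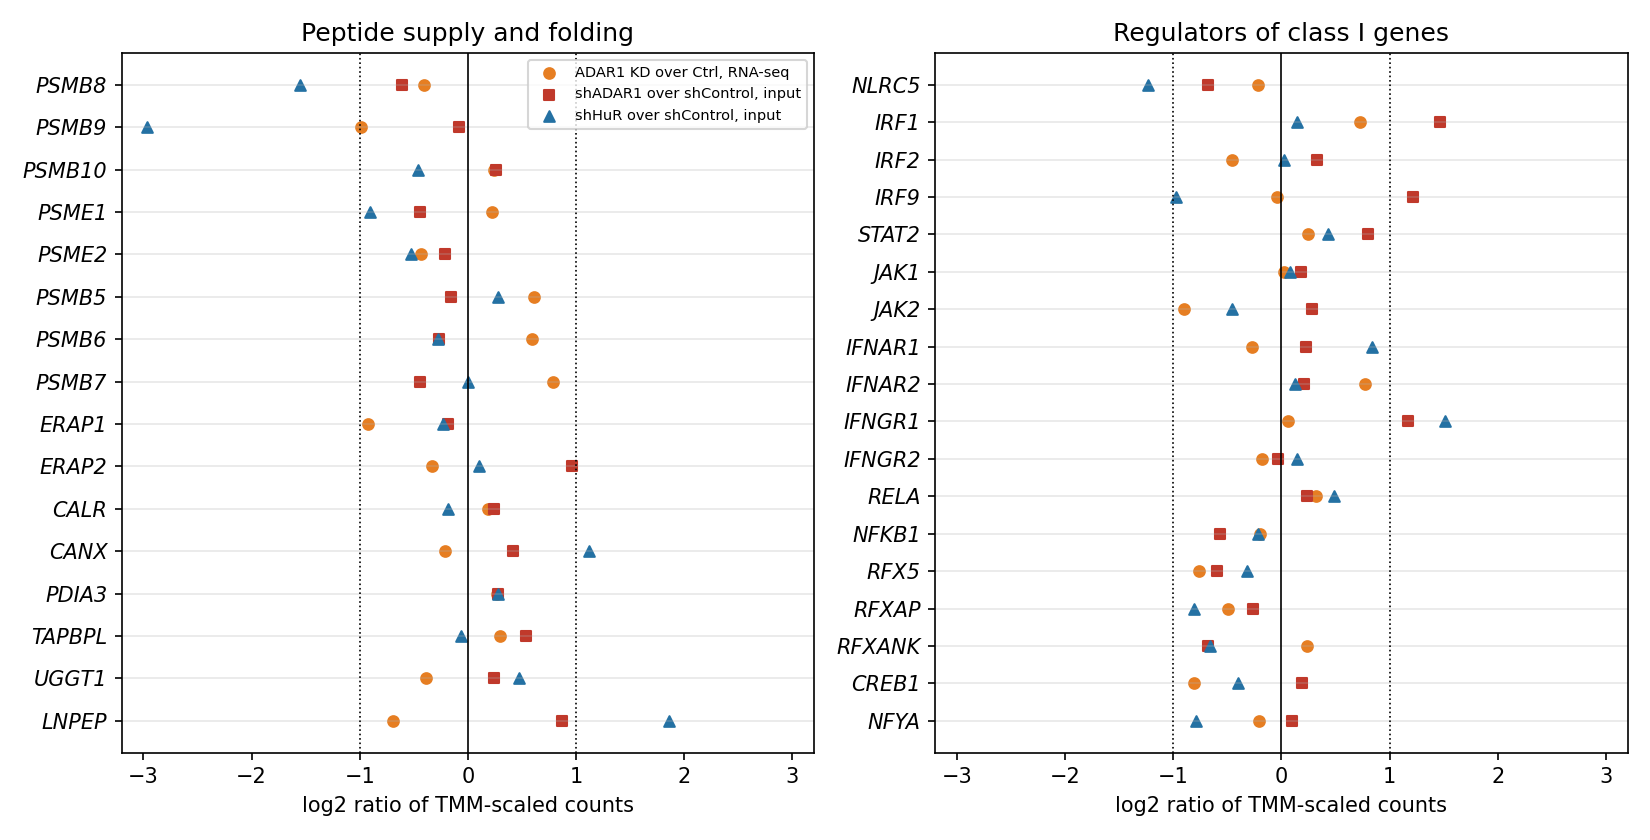
Log2 ratio of TMM-scaled counts for 16 peptide supply and folding genes (left) and 18 regulators with a ratio (right), for ADAR1 KD over Ctrl in RNA-seq, shADAR1 over shControl and shHuR over shControl in the inputs; dotted lines mark 2-fold. IRF1 reaches 1.47 in the shADAR1 input and PSMB9 -2.97 in the shHuR input.

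The likeness of genes to B2M and TAP1 was measured within the RNA-seq pair, the 3 inputs and the 3 precipitates, with log2 levels centred on each gene's mean in each of those sets. The measure leaves out differences between the sets, such as precipitate against input, where TAPBP and B2M lay on opposite sides. The measure was the root mean square difference of these centred levels over the 8 libraries. By it, the nearest of 13004 genes to B2M were TTC17 (0.03), CAP1 (0.07) and U2AF1L4 (0.07). The nearest class I gene was TAPBP at 0.28, only at rank 1357. For TAP1 the nearest were CLSTN3 (0.06), CPT1C (0.10) and TRIM46 (0.11). HLA-B was the nearest class I gene to TAP1 at 0.34, only at rank 1314. The 8 libraries share lines and experiments, so this measure describes these libraries only.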

How the data were processed

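IMR90 libraries were prepared with the KAPA RNA HyperPrep kit and precipitates with the Magna RIP kit, per the labels' protocols. The deposited expected counts per gene come from RSEM 1.2.3 on hg19, per the submitters' processing notes. They are whole numbers and were used unchanged. The deposited FPKM values, scaled per length and library by the authors, cover the RNA-seq only. The aligner, annotation release and strand setting are not given in the sources used here. The class I genes and both gene lists were chosen with earlier results of these data known.

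Ratios between single libraries used TMM factors (edgeR 4.0.16 in R 4.3.3), computed within the RNA-seq pair, the 3 inputs or the 6 libraries of the precipitation. They carry exact binomial 95% intervals and were called at 2-fold (1.5-fold for differences in enrichment) with at least 50 counts in a library and a prior count of 2. edgeR's quasi-likelihood test with Benjamini-Hochberg adjustment over all genes, with experiment or line as block, gave the p-values. The blocked tests leave 1 (knockdown) and 2 (precipitation) residual degrees of freedom. DESeq2 1.42.0 was an alternative. Scripts were tested on simulated data. A few genes and sequences are not reported here and are not counted in the lists. List genes were named when among the 3 farthest from 0 in a comparison; a few others, such as UGGT1, CANX and IFNB1, were chosen after their values were seen. Single-library groups have no replicate, so p-values rest on the spread between lines or experiments. That spread was estimated with information shared across genes, so it is not each gene's own spread alone. The lines of the precipitation differ in their knockdown, HuR included, and their spread holds that difference.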

Additional observations from a re-analysis of the deposited data

Results flagged for a closer look

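TAP1 was looked at again because its 2 comparisons of ADAR1 knockdown went opposite ways. Its log2 ratio was -0.74 for KD over Ctrl in RNA-seq and 0.26 for shADAR1 over shControl in the inputs, a difference of -1.0. With 1 library a group, the difference between the experiments was not tested, and experiment and knockdown line cannot be told apart.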

How the results depend on the processing

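Of 382 single-gene alternatives, 253 stayed within the counting interval of the main value, 128 moved beyond it and 1 changed the sign of a called value; of the alternatives for counts, 155 stayed within 1.5 times and 19 did not. With calls at 1.5-fold, RNA-seq had 3 higher and 1 lower, the shADAR1 input 4 higher and the shHuR input 3 higher; with enrichment differences called at 2-fold, 0 were higher in shADAR1 and 3 in shHuR. With GC and length trends removed, 2 were higher in the shADAR1 input, 3 lower in the shADAR1 and 2 in the shHuR precipitate, enrichment differences gave 0 and 3, and TAPBP in shHuR turned to -0.065. The edgeR knockdown fit called 140 and 34 genes (higher and lower) without a filter, 0 and 0 without the block (85 at an unadjusted p under 0.05) and 92 and 27 by DESeq2, never a class I gene. Without the block the precipitate fit called 3020 lower; leaving out 1 line gave 2831 (without shADAR1) to 5383 (without shHuR) higher. The edgeR calls of the 6 class I genes in the precipitates held without the block, by DESeq2 and without each line in turn. Where not stated, the cause was not tested.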
